A study of Chlamydomonas reinhardtii with 42 samples.

Results

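Early light-inducible proteins (ELIPs) were followed at the transcript level through 4 genes of the green alga Chlamydomonas reinhardtii: Cre07.g320400, Cre07.g320450, Cre09.g393173 and Cre09.g394325. They were taken by identifier from the 17741 genes of the count table, and all 4 were among the 13886 genes tested. One of them, Cre09.g393173, is named ELI2 in the study's list of photoprotection genes, while the other 3 carry no symbol in the sources used here and are called by their identifiers. RNA was sequenced from cultures of 1 wild-type strain, CC-125, in 14 conditions with 3 libraries each. Cells from acetate-containing TAP medium were moved to HSM, a mineral medium without organic carbon, and kept in low light (LL) of 5 µmol photons per square metre and second. At time 0, part of the culture received 20 mM acetate, which the alga can use as a carbon source, and the rest stayed in HSM alone. LL samples were taken at 15, 240 and 1440 min in both media. High light (HL), 300 in the same unit, started at 240 min (day 1) or 1440 min (day 2) and was sampled after 15 and 60 min, again in both media. All 14 conditions thus share the strain, the mineral base and the passage through TAP.

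ELIPs are thylakoid membrane proteins of the light-harvesting complex superfamily. In plants such as Arabidopsis they accumulate during greening and under strong light, UV-B or cold. They are thought to bind chlorophyll and carotenoids and to limit photooxidative damage rather than to harvest light. The transcripts are typically transient and rise early after a shift to stronger light.

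Libraries held 19232800 to 34098900 counts (totals rounded to the nearest 100), and no pair of replicates agreed within sampling noise. Levels are given as CPM, counts relative to the library total, after TMM scaling, which corrects for a few abundant genes that take a large share of a library. TMM factors ran from 0.45 to 1.57, the lowest in replicate 2 of HSM, LL, 1440 min, where the 100 most abundant genes took 76.3% of counts. That library stands apart from the others, and the log2 fold changes of single ELIP genes that rest on it are given with and without it. Since counts were not divided by transcript length, levels are compared between conditions but never between genes.

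The 4 genes moved in different directions. Averaged over the 8 comparisons of HL with LL, all 4 passed the threshold (adjusted p under 0.05 by edgeR's quasi-likelihood fit, with Benjamini-Hochberg correction over all genes tested), as did 83.3% of all genes tested. Cre07.g320400 rose most (log2 fold change 3.79 ± 0.50, SE; adjusted p = 5.5e-12), followed by Cre07.g320450 (2.13 ± 0.16; adjusted p = 9.85e-15) and Cre09.g393173 (0.64 ± 0.06; adjusted p = 4.95e-12). Cre09.g394325 fell (−0.47 ± 0.14; adjusted p = 0.00176). That is 3 genes higher and 1 lower, where 40.5% of all genes were higher and 42.8% lower. These averages hide opposite responses. Cre09.g394325 rose with acetate on day 2, by 2.91 after 15 min and 1.89 after 60 min, and was below 0 in the other comparisons. Cre07.g320450 was above 0 after 15 min each time, but after 60 min only with acetate on day 2. The median over the 4 genes was 1.38, against −0.03 over all genes tested. Leaving out the library that stands apart gave 3.73, 2.13, 0.58 and −0.45 for Cre07.g320400, Cre07.g320450, Cre09.g393173 and Cre09.g394325, all past the threshold.

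On average, acetate divided the genes in pairs. Averaged over the 7 comparisons with HSM, all 4 passed the threshold, as did 85.0% of all genes. Cre07.g320450 (3.14 ± 0.14; adjusted p = 2.36e-20) and Cre07.g320400 (2.37 ± 0.43; adjusted p = 3.65e-06) were higher with acetate. Cre09.g394325 (−0.97 ± 0.12; adjusted p = 3.18e-09) and Cre09.g393173 (−0.90 ± 0.05; adjusted p = 3.79e-18) were lower. Of all genes, 40.8% were higher and 44.2% lower with acetate, so that 48.0% of the called genes were higher, against 67.1% with library size as scaling. None of the 4 genes changed direction in either average with that scaling. Leaving out the library that stands apart gave 3.16, 2.35, −0.95 and −0.92 for Cre07.g320450, Cre07.g320400, Cre09.g394325 and Cre09.g393173, all past the threshold. The HL and acetate averages draw on shared libraries and are not independent of each other.

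**Figure D1:**
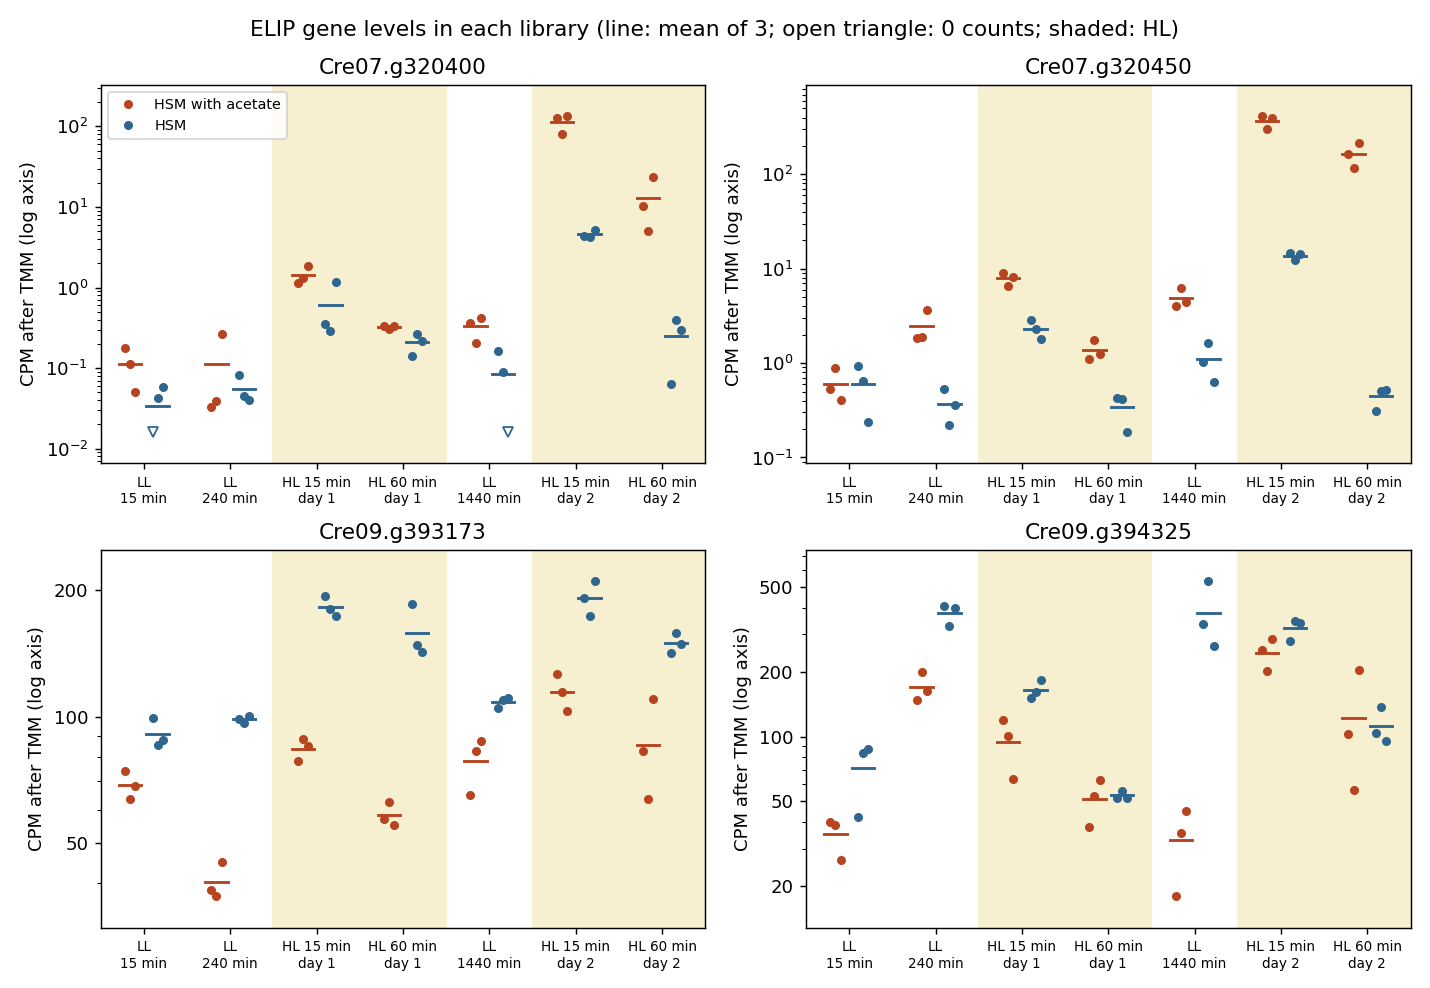
CPM after TMM scaling (log axis) of each ELIP gene in every library, by sampling point, with HSM plus acetate left of HSM, a line at the mean of 3 libraries and open triangles for libraries with 0 counts. Cre07.g320400 and Cre07.g320450 peak with acetate after 15 min of HL on day 2, at means of 114 and 370.2 CPM.

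Cre07.g320450 had its highest level with acetate after 15 min of HL on day 2, at 411, 305 and 395 CPM, against 14.6, 12.24 and 14.19 CPM in HSM at the same time. Every acetate library lay far above every HSM library. After 60 min it stood at 165.5, 117 and 214 CPM with acetate, against 0.314, 0.506 and 0.518 CPM in HSM. On day 1 the same shift to HL gave 9.01, 6.53 and 8.19 CPM with acetate and 2.84, 2.28 and 1.82 CPM in HSM after 15 min. The day 1 peak had passed after 60 min, when levels were 1.11, 1.74 and 1.26 CPM with acetate and 0.425, 0.413 and 0.188 CPM in HSM.

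In LL, Cre07.g320450 was low throughout, and the media separated only after 15 min. At 15 min it held 0.530, 0.890 and 0.404 CPM with acetate and 0.943, 0.646 and 0.235 CPM in HSM, so that the media overlapped. By 240 min the acetate libraries had 1.82, 1.90 and 3.67 CPM, all above the 0.530, 0.222 and 0.358 CPM of HSM. At 1440 min they had 4.04, 6.27 and 4.39 CPM, against 1.03, 1.62 and 0.637 CPM in HSM. In the order of condition means, from 370.2 CPM down to 0.342 CPM (HSM, 60 min of HL on day 1), 7 of the 13 neighbouring pairs had overlapping libraries. Of the 5 highest conditions none overlapped with the next one below.

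Cre07.g320400 was near the limit of detection in LL and was highest at the same point. With acetate after 15 min of HL on day 2 the libraries had 129, 80.9 and 133 CPM, from 3896, 2068 and 3095 counts. In HSM they had 4.36, 4.22 and 5.18 CPM at that point, from 71, 59 and 73 counts. After 60 min levels were 10.19, 5.06 and 23.8 CPM with acetate and 0.0627, 0.389 and 0.296 CPM in HSM. On day 1 the level reached 1.13, 1.32 and 1.82 CPM with acetate after 15 min, against 0.355, 0.290 and 1.17 CPM in HSM, where replicate 3 overlapped with the acetate libraries. After 60 min on day 1 it had 0.335, 0.306 and 0.331 CPM with acetate, all above the 0.142, 0.263 and 0.220 CPM of HSM.

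Counts of Cre07.g320400 in LL were too few for a fold change to be precise. At 15 min the libraries held 3, 2 and 1 counts with acetate and 0, 1 and 1 in HSM. At 240 min they held 1, 1 and 10 with acetate and 2, 1 and 1 in HSM, and at 1440 min 12, 5 and 13 with acetate and 4, 1 and 0 in HSM. The gene reached 1 CPM by library size in 13 libraries, HL libraries in each case, so it passed the filter through the conditions where it is high. Its fitted fold changes against LL in HSM depend on the prior count. The ratio of summed, scaled counts is therefore given beside them, with a 95% interval (exact, for counting error only). Of its 13 neighbouring pairs of conditions, 11 overlapped.

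Cre09.g393173 (ELI2) was well expressed everywhere and changed least. Its condition means ran from 40.3 CPM (acetate, LL, 240 min) to 192 CPM (HSM, 15 min of HL on day 2), a 4.77-fold range, against a 1082-fold range for Cre07.g320450. The 4 highest means were the 4 HL conditions in HSM, and the lowest library among them (142 CPM) lay above all libraries of the other 10 conditions. At 240 min in LL the acetate libraries had 38.5, 37.3 and 45.0 CPM, against 98.9, 96.5 and 100.2 CPM in HSM. After 15 min of HL on day 1 they had 78.4, 88.2 and 85.1 CPM with acetate and 194, 180.2 and 174 CPM in HSM.

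After 60 min of HL on day 1, Cre09.g393173 stood at 57.1, 62.6 and 55.2 CPM with acetate and 186, 148 and 142 CPM in HSM. On day 2 the values were 127, 114 and 103 CPM with acetate and 192, 173 and 210.3 CPM in HSM after 15 min. After 60 min they were 82.6, 63.7 and 110.2 CPM with acetate, against 142, 158 and 149 CPM in HSM. In LL it had 74.1, 63.7 and 68.1 CPM with acetate and 99.3, 85.5 and 88.1 CPM in HSM at 15 min, and 65.0, 82.8 and 87.7 CPM with acetate and 105, 109 and 111 CPM in HSM at 1440 min. With TMM scaling the acetate and HSM libraries overlapped at none of the 7 sampling points, and the acetate libraries were the lower ones each time. This depended on the scaling. By library size only, the means in LL at 1440 min were 109.5 CPM with acetate and 76.4 CPM in HSM. After 15 min of HL on day 2 they were 117.6 and 118.4 CPM.

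Cre09.g394325 had its highest condition means in HSM in LL, at 240 and 1440 min. These libraries overlapped with those of HSM after 15 min of HL on day 2. At 240 min it had 148, 199.96 and 163 CPM with acetate and 405, 327 and 396 CPM in HSM. At 1440 min the acetate libraries had only 18.0, 35.6 and 44.8 CPM, against 337, 531 and 265 CPM in HSM, where the highest value is that of the library that stands apart. At 15 min it had been low in both media, with 40.0, 38.5 and 26.6 CPM with acetate and 42.02, 83.7 and 87.9 CPM in HSM.

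In HL on day 1 Cre09.g394325 stood at 119.6, 100.1 and 63.5 CPM with acetate and 152, 162 and 183 CPM in HSM after 15 min. After 60 min the media overlapped, at 37.9, 53.0 and 62.6 CPM with acetate and 51.8, 55.8 and 51.7 CPM in HSM. On day 2 it had 252, 201 and 284 CPM with acetate and 278, 347 and 339 CPM in HSM after 15 min, and 103, 56.6 and 205 CPM with acetate and 104, 137 and 94.8 CPM in HSM after 60 min. In the acetate libraries of that last condition, replicate 2 was lowest and replicate 3 highest for each of the 4 ELIP genes. Of the 13 neighbouring pairs in its order of means, 12 overlapped.

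HL was compared with LL of the same medium, sampled just before the shift. The comparisons after 15 and 60 min share their LL libraries, so their values stand side by side. On day 1 after 15 min, 4 of the 4 genes passed the threshold with acetate and 4 in HSM, where 58.6% and 69.9% of all genes did. Cre07.g320400 rose by 3.46 ± 0.80 (log2 fold change, SE) with acetate and 3.403 ± 1.32 in HSM (adjusted p = 1.58e-05 and 0.00256). Cre07.g320450 rose by 1.65 ± 0.26 with acetate and 2.60 ± 0.45 in HSM (adjusted p = 1.42e-06 and 6.9e-07). Cre09.g393173 rose by 1.06 ± 0.14 with acetate and 0.89 ± 0.14 in HSM (adjusted p = 4.68e-08 and 5.56e-07). Cre09.g394325 fell in both, with −0.85 ± 0.32 with acetate and −1.18 ± 0.32 in HSM (adjusted p = 0.0215 and 0.00138).

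From counts, the day 1 ratio of Cre07.g320400 after 15 min was 11.26 (95% interval 6.26 to 22.3) with acetate and 11.5 (4.18 to 44.3) in HSM. Without replicate 3 of HSM, 15 min of HL, the HSM call was lost (2.51, adjusted p = 0.0639). The acetate value was 5.15 without replicate 3 of acetate, LL, 240 min, which held 10 of the 12 counts there. For Cre09.g394325 the acetate call was lost without replicate 2 of acetate, LL, 240 min (−0.72, adjusted p = 0.0834) or replicate 3 of acetate, 15 min of HL (−0.69, adjusted p = 0.0985).

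On day 1 after 60 min, 3 of the 4 genes passed with acetate, where 51.8% of all genes did, and 2 in HSM, where 65.4% did. Cre07.g320450 was no longer above LL. It fell with acetate (−0.88 ± 0.29, adjusted p = 0.0103) and had −0.15 ± 0.54 in HSM (adjusted p = 0.816). Cre09.g393173 was higher than in LL, by 0.53 ± 0.14 with acetate and 0.69 ± 0.14 in HSM (adjusted p = 0.00143 and 4.58e-05). Cre09.g394325 fell, with −1.73 ± 0.32 with acetate and −2.82 ± 0.32 in HSM (adjusted p = 3.05e-05 and 6.91e-09). Cre07.g320400 had 1.34 ± 0.86 with acetate and 1.82 ± 1.39 in HSM (adjusted p = 0.156 and 0.179), with count ratios of 2.56 (1.32 to 5.34) and 3.75 (1.23 to 15.2). Its HSM value passed with library size only (2.301, adjusted p = 0.0445) and in a fit of only the libraries compared (1.76, adjusted p = 0.0314). The fall of Cre07.g320450 with acetate was lost without replicate 3 of acetate, LL, 240 min (−0.45, adjusted p = 0.246) or replicate 1 of acetate, 60 min of HL (−0.75, adjusted p = 0.0524), and with library size only (−0.63, adjusted p = 0.0738). Leaving out that LL library put Cre07.g320400 with acetate past the threshold (3.03, adjusted p = 0.0409).

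On day 2 after 15 min, 4 of the 4 genes passed with acetate, where 67.7% of all genes did, and 3 in HSM, where 71.2% did. Cre07.g320400 rose by 8.37 ± 0.54 with acetate and 5.49 ± 1.16 in HSM (adjusted p = 2.17e-17 and 1.81e-08). Its count ratios were 336 (235 to 498) with acetate and 46.7 (19.7 to 145) in HSM. Cre07.g320450 rose by 6.25 ± 0.24 with acetate, a 75.9-fold change, and 3.70 ± 0.35 in HSM, a 13.0-fold change (adjusted p = 3.83e-19 and 2.58e-12). With acetate the fold changes of Cre07.g320400 and Cre07.g320450 stood at ranks 3 and 6 of the 13886 genes tested. The rank of Cre07.g320400 is favoured by a filter that it passed through HL libraries and by its few counts in LL.

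In the same comparison Cre09.g394325, which fell on day 1, rose with acetate (2.91 ± 0.32, adjusted p = 2.53e-09) and had −0.23 ± 0.32 in HSM (adjusted p = 0.52). Cre09.g393173 rose by 0.55 ± 0.14 with acetate and 0.83 ± 0.14 in HSM (adjusted p = 0.000647 and 2.19e-06). Scaled by library size alone, the rise of Cre09.g393173 with acetate was 0.10 (adjusted p = 0.612). Without replicate 1 of HSM, LL, 1440 min, which held 4 of the 5 counts, the HSM value of Cre07.g320400 was 6.76. Without replicate 2 of HSM, LL, 1440 min, the HSM values of Cre07.g320400, Cre07.g320450 and Cre09.g393173 were 5.46, 3.98 and 0.84 and kept their calls, and that of Cre09.g394325 was 0.10 (adjusted p = 0.811).

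On day 2 after 60 min, 3 of the 4 genes passed with acetate, where 76.2% of all genes did, and 3 in HSM, where 68.9% did. With acetate, Cre07.g320400 (5.23 ± 0.54, adjusted p = 9.3e-13), Cre07.g320450 (5.08 ± 0.24, adjusted p = 2.11e-18) and Cre09.g394325 (1.89 ± 0.32, adjusted p = 3.71e-06) were still above LL, and Cre09.g393173 had 0.12 ± 0.14 (adjusted p = 0.414), a value that turned to −0.46 with library size only (adjusted p = 0.0177). In HSM, Cre07.g320450 fell below LL (−1.25 ± 0.45, adjusted p = 0.0141), as did Cre09.g394325 (−1.75 ± 0.32, adjusted p = 1.5e-05), while Cre09.g393173 rose (0.47 ± 0.14, adjusted p = 0.00295). Cre07.g320400 had 1.25 ± 1.27 in HSM (adjusted p = 0.336), a count ratio of 2.41 (0.878 to 8.22), and passed with library size only (2.06, adjusted p = 0.0497).

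The HSM call of Cre07.g320450 after 60 min on day 2 was lost without replicate 2 of HSM, LL, 1440 min (−1.06, adjusted p = 0.066) or replicate 1 of HSM, 60 min of HL (−1.03, adjusted p = 0.0649), by limma-voom (adjusted p = 0.056), and with library size only (−0.38, adjusted p = 0.405). Without replicate 2 of HSM, LL, 1440 min, Cre09.g393173 had 0.39 (adjusted p = 0.0259), Cre09.g394325 −1.51 (adjusted p = 0.000195) and Cre07.g320400 1.14 (adjusted p = 0.451) in HSM. Without replicate 3 of acetate, 60 min of HL, the acetate values of Cre07.g320400 and Cre09.g394325 were 4.48 and 1.28, both past the threshold. Without replicate 2 of the same condition, Cre09.g393173 with acetate passed it (0.30, adjusted p = 0.0447).

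**Figure D2:**
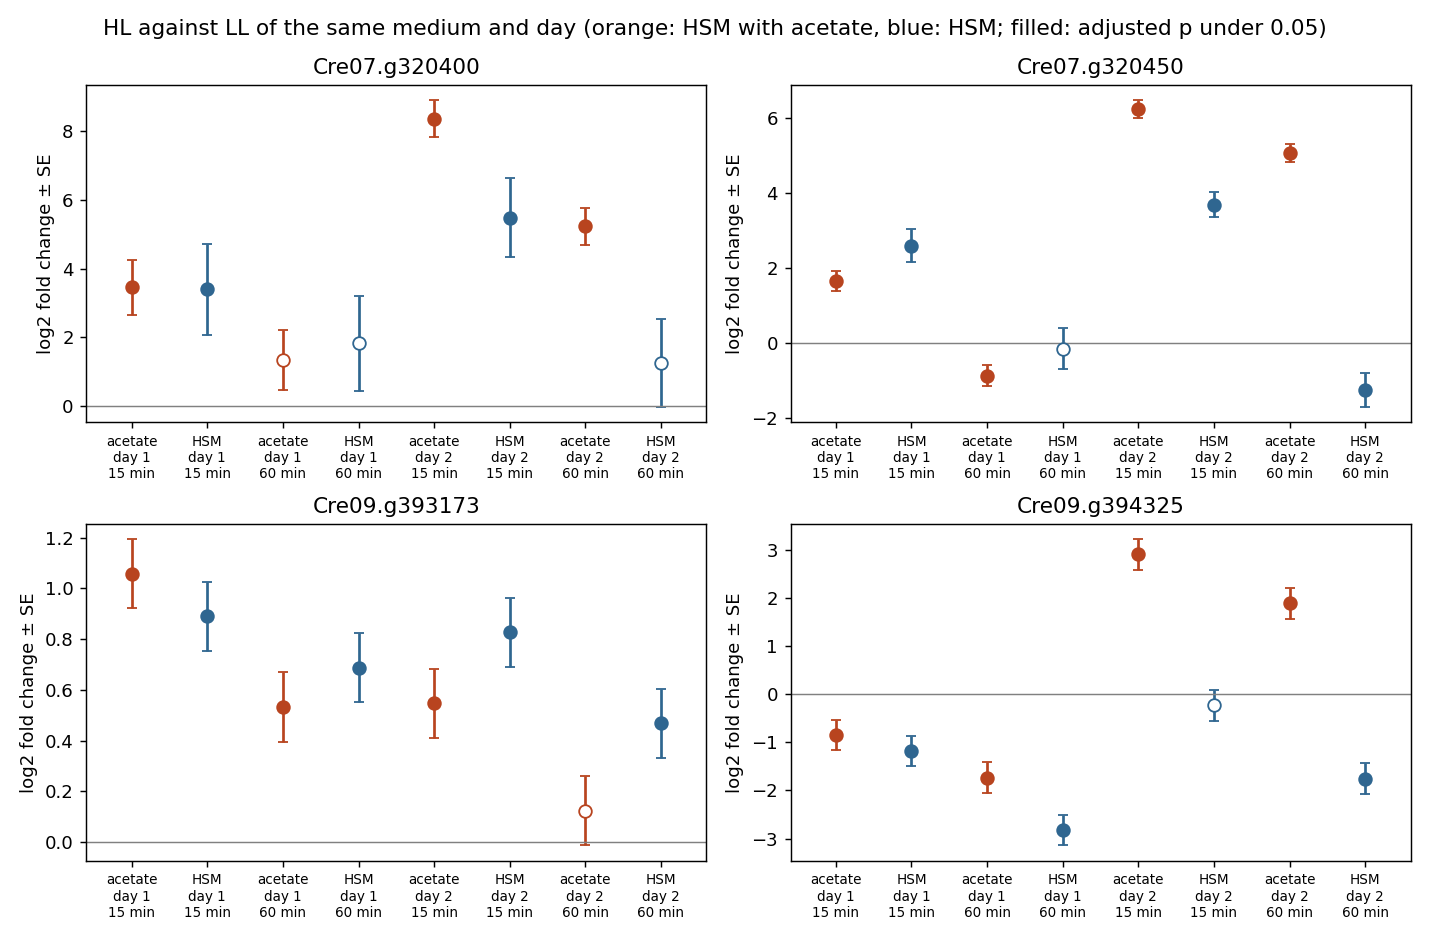
Log2 fold changes of HL samples against the LL samples taken before each shift, 3 libraries against 3. SE bars use the spread estimated over all 42 libraries. Acetate is left of HSM, and filled points are past the threshold. Cre09.g394325 is below 0 on day 1 in both media and at 2.91 and 1.89 with acetate on day 2.

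Acetate was then compared with HSM at each sampling point. At 15 min in LL, 2 of the 4 genes passed, where 74.0% of all genes did. Cre09.g393173 (−0.41 ± 0.14, adjusted p = 0.00833) and Cre09.g394325 (−1.02 ± 0.32, adjusted p = 0.00523) were lower with acetate, Cre07.g320450 had −0.04 ± 0.50 (adjusted p = 0.945), and the count ratio of Cre07.g320400 was 3.25 (0.581 to 32.9; adjusted p = 0.423). At 240 min, 3 of the 4 passed, where 64.8% of all genes did. Cre07.g320450 was higher (2.73 ± 0.44, adjusted p = 1.58e-07), Cre09.g393173 (−1.29 ± 0.14, adjusted p = 5.51e-10) and Cre09.g394325 (−1.14 ± 0.32, adjusted p = 0.00218) were lower, and the ratio of Cre07.g320400 was 2.29 (0.694 to 9.75; adjusted p = 0.462).

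In HL on day 1, acetate changed 4 of the 4 genes after 15 min, where 65.4% of all genes changed. Cre07.g320450 (1.79 ± 0.28, adjusted p = 6.94e-07) and Cre07.g320400 (1.17 ± 0.52, adjusted p = 0.0393) were higher, and Cre09.g393173 (−1.12 ± 0.14, adjusted p = 9.97e-09) and Cre09.g394325 (−0.81 ± 0.32, adjusted p = 0.0253) were lower. The call of Cre07.g320400 rested on most libraries, with adjusted p values of 0.0506 to 0.207 without replicates 1 or 2 of HSM or replicates 2 or 3 of acetate at this point, and a value of 2.13 without replicate 3 of HSM. It was also lost with RLE scaling, the size factors of DESeq2 used in edgeR (adjusted p = 0.0567) and by limma-voom (adjusted p = 0.0797). That of Cre09.g394325 was lost without replicate 3 of HSM (−0.76, adjusted p = 0.0604) or replicate 3 of acetate (−0.61, adjusted p = 0.132), and with library size only (−0.20, adjusted p = 0.557).

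After 60 min on day 1, 2 of the 4 genes passed, where 50.2% of all genes did. Cre07.g320450 was higher with acetate (2.01 ± 0.43, adjusted p = 7.15e-05) and Cre09.g393173 lower (−1.45 ± 0.14, adjusted p = 1.3e-10). Cre07.g320400 had 0.63 ± 0.75 (adjusted p = 0.487) and Cre09.g394325 −0.05 ± 0.32 (adjusted p = 0.902).

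At 1440 min in LL, 3 of the 4 genes passed, where 63.9% of all genes did. Cre09.g394325 showed its largest acetate effect here, a log2 fold change of −3.53 ± 0.32 (adjusted p = 7.67e-11), with rank 204 from the bottom of the 13886 genes. Without replicate 2 of HSM at this point it was −3.15 (adjusted p = 1.48e-09). Cre07.g320450 was higher with acetate (2.21 ± 0.35, adjusted p = 5.01e-07), and 2.54 without that library. Cre07.g320400 had a ratio of 3.48 (1.34 to 11.5) and did not pass the threshold (adjusted p = 0.147), while DESeq2 gave adjusted p = 0.0374 and library size only 0.00594, and leaving out replicate 2 of HSM gave a log2 fold change of 1.78 (adjusted p = 0.202). Cre09.g393173 was lower (−0.46 ± 0.14, adjusted p = 0.00364), with −0.40 (adjusted p = 0.0228) without replicate 2 of HSM and −0.42 (adjusted p = 0.0517) in a fit of only the libraries compared. Scaled by library size its value turned to 0.52 (adjusted p = 0.00687), where that scaling shifted the median of all genes by 0.99. Relative to this median it was −0.47 with library size and −0.46 with TMM. Subtracting the median removes the shift between the scalings, so this likeness does not show which scaling holds.

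On day 2 in HL the acetate effect on the neighbouring genes Cre07.g320400 and Cre07.g320450 was largest. After 15 min, 3 of the 4 genes passed, where 70.9% of all genes did, and after 60 min 3 passed, where 74.0% did. Cre07.g320400 was higher by 4.64 ± 0.34 after 15 min and 5.74 ± 0.63 after 60 min (adjusted p = 6.5e-14 and 4.55e-13). Its count ratios were 25.01 (21.8 to 28.9) and 53.6 (34.5 to 88.1). Cre07.g320450 was higher by 4.76 ± 0.23, 27.0-fold, after 15 min and by 8.54 ± 0.38, 373-fold, after 60 min (adjusted p = 9.51e-18 and 2.17e-21). The 60 min value stood at rank 5 of the 13886 genes tested.

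At the same points Cre09.g393173 was lower with acetate, by −0.74 ± 0.14 after 15 min and −0.81 ± 0.14 after 60 min (adjusted p = 1.1e-05 and 2.42e-06). Cre09.g394325 had −0.39 ± 0.32 after 15 min and 0.12 ± 0.32 after 60 min (adjusted p = 0.274 and 0.746). With library size only, the 15 min value of Cre09.g393173 was −0.01 (adjusted p = 0.966). After subtracting the all-gene median it was −0.87 with library size and −0.88 with TMM, which again does not show which scaling holds. The 15 min value of Cre09.g394325 passed in a fit of only the libraries compared (−0.47, adjusted p = 0.0141), but had the other sign with library size only (0.38, adjusted p = 0.232). Its 60 min value also had the other sign with library size only (−0.36, adjusted p = 0.262). For Cre07.g320400 the 60 min value was 4.98 without replicate 3 of acetate, 60 min of HL.

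**Figure D3:**
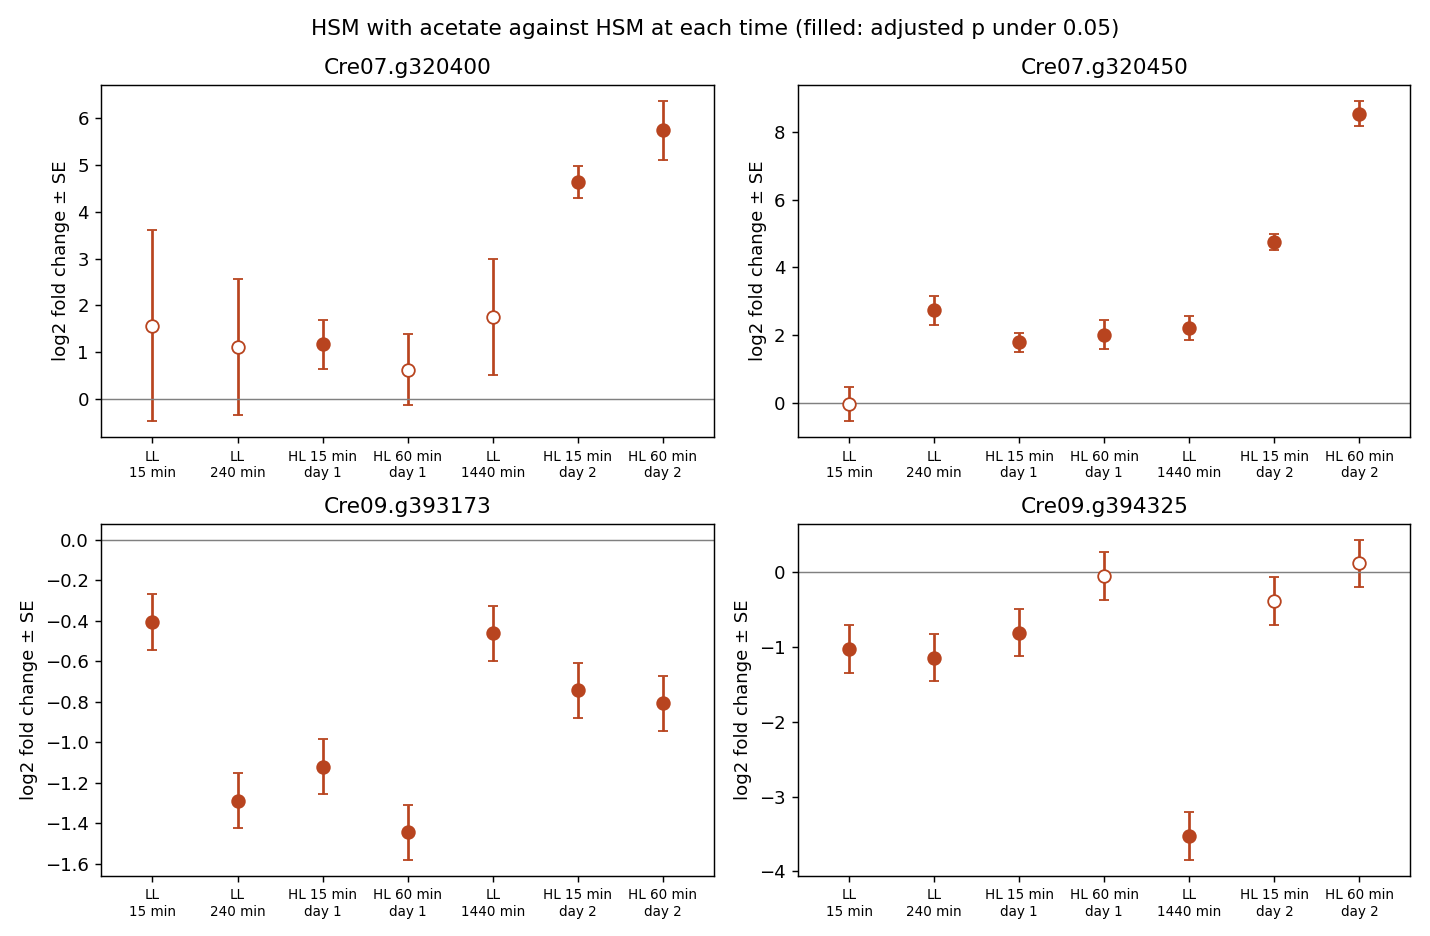
Log2 fold changes of HSM with acetate against HSM at the 7 sampling points, 3 libraries against 3. SE bars use the spread estimated over all 42 libraries, and filled points are past the threshold. With TMM scaling, Cre09.g393173 is below 0 at all 7 points, and Cre07.g320450 climbs to 8.54 after 60 min of HL on day 2.

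Set against 15 min of HL, each ELIP gene that passed the threshold was lower after 60 min. In HSM on day 1, 2 of the 4 genes passed the threshold, where 65.0% of all genes did, and on day 2 all 4 did, where 72.3% of all genes did. With acetate all 4 passed on day 1, where 61.1% of all genes did, and all 4 on day 2, where 63.0% did. Cre07.g320450 fell in each of the 4 comparisons. With acetate the log2 fold changes were −2.53 ± 0.27 on day 1 and −1.16 ± 0.22 on day 2 (adjusted p = 8.09e-10 and 2.97e-05). In HSM they were −2.75 ± 0.43 on day 1 and −4.95 ± 0.38 on day 2 (adjusted p = 2.5e-07 and 8.49e-15), and the day 2 value stood 9 from the bottom of all genes tested.

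Cre07.g320400 fell with acetate on day 1 (−2.12 ± 0.52, adjusted p = 0.000322) and day 2 (−3.14 ± 0.30, adjusted p = 1.52e-10) and in HSM on day 2 (−4.24 ± 0.64, adjusted p = 9.9e-09). In HSM on day 1 it had −1.58 ± 0.75 (adjusted p = 0.0506), which passed the threshold by DESeq2 (adjusted p = 0.00717), with RLE scaling (adjusted p = 0.0374), in a fit of only the libraries compared (adjusted p = 0.0385), and without replicate 1 (adjusted p = 0.0286) or replicate 2 (adjusted p = 0.0227) of HSM, 15 min of HL. The day 2 acetate value was −3.90 without replicate 3 of acetate, 60 min of HL.

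Cre09.g394325 also fell each time. With acetate it had −0.88 ± 0.32 on day 1 and −1.02 ± 0.32 on day 2 (adjusted p = 0.0166 and 0.00588), and in HSM −1.64 ± 0.32 and −1.52 ± 0.32 (adjusted p = 4.42e-05 and 8.43e-05). The day 1 acetate call was lost without replicate 1 of acetate after 15 min (adjusted p = 0.099) or after 60 min (adjusted p = 0.0922), and with library size only (adjusted p = 0.0511). The day 2 acetate value was −0.68 (adjusted p = 0.0649) without replicate 2 of the 60 min libraries and −1.63 without replicate 3. The day 2 HSM value was −0.48 with library size only (adjusted p = 0.129).

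The changes of Cre09.g393173 were small, and those in HSM turned with the scaling. With acetate it had −0.53 ± 0.14 on day 1 and −0.42 ± 0.14 on day 2 (adjusted p = 0.00115 and 0.0071), and in HSM −0.20 ± 0.14 and −0.36 ± 0.14 (adjusted p = 0.189 and 0.0184). With library size only, the HSM values were 0.45 (adjusted p = 0.0203) and 0.69 (adjusted p = 0.000509), as the median of all genes moved by 0.66 and 1.04, and the day 1 acetate value was −0.32 (adjusted p = 0.124). The day 1 HSM value passed with RLE scaling (adjusted p = 0.0461), by DESeq2 (adjusted p = 0.0366), and without replicate 3 of the 15 min libraries (adjusted p = 0.0425) or replicate 1 of the 60 min libraries (adjusted p = 0.0495). The day 2 calls were lost without replicate 1 of HSM, 60 min (adjusted p = 0.0655) and without replicate 2 of acetate, 60 min (adjusted p = 0.104).

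In continuous LL, Cre09.g394325 rose in both media between 15 and 240 min. From 15 to 240 min in HSM it was the 1 gene of the 4 past the threshold, where 4.198% of all genes were, with a log2 fold change of 2.401 ± 0.32 (5.28-fold, adjusted p = 5.97e-05), rank 3 of the 13886 genes. Cre09.g393173 had 0.11 ± 0.14 there (adjusted p = 0.691) and passed with library size only (0.52, adjusted p = 0.0355). With acetate 3 of the 4 genes passed over the same interval, where 67.3% of all genes did. There Cre09.g394325 rose by 2.28 ± 0.32 (adjusted p = 2.83e-07) and Cre07.g320450 by 2.05 ± 0.41 (adjusted p = 1.3e-05), and Cre09.g393173 fell (−0.77 ± 0.14, adjusted p = 9.1e-06). That last value turned to 0.17 with library size only (adjusted p = 0.39), with a shift of 0.93 in the median of all genes.

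Between 240 and 1440 min of LL, 1 of the 4 genes passed in HSM, where 20.5% of all genes did, and 3 with acetate, where 52.2% did. With acetate Cre09.g394325 fell by 2.38 ± 0.32 on the log2 scale (adjusted p = 3.54e-07), and Cre07.g320450 (0.96 ± 0.27, adjusted p = 0.00299) and Cre09.g393173 (0.96 ± 0.14, adjusted p = 5.17e-07) rose. In HSM Cre09.g394325 had 0.01 ± 0.32 (adjusted p = 0.994), or −0.34 without replicate 2 of the 1440 min libraries. Cre07.g320450 rose in HSM (1.48 ± 0.49, adjusted p = 0.0238). That call was lost without replicate 2 of the 1440 min libraries (1.18, adjusted p = 0.122), without replicate 1 of them (adjusted p = 0.0598), without replicate 2 (adjusted p = 0.0957) or 3 (adjusted p = 0.0671) of the 240 min libraries, by limma-voom (adjusted p = 0.0854), with library size only (adjusted p = 0.0653) and in a fit of only the libraries compared (adjusted p = 0.0798). The count ratio of Cre07.g320400 with acetate was 2.69 (1.34 to 5.77; adjusted p = 0.157), and it passed without replicate 3 of acetate, LL, 240 min (adjusted p = 0.0404) and by DESeq2 (adjusted p = 0.0367).

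Whether the HL response differed between media was tested as an interaction. On day 1 none of the 4 genes passed with edgeR, after 15 min (29.0% of all genes) or after 60 min (35.1% of all genes). At an unadjusted p under 0.05 there were 0 and 1 genes, DESeq2 called 0 and 1, and limma-voom 0 and 0. The 1 gene was Cre09.g394325 after 60 min, with a difference of 1.09 ± 0.45 (adjusted p = 0.0563 by edgeR and 0.0356 by DESeq2), which edgeR called without replicate 1 of acetate, 60 min of HL (adjusted p = 0.0388), with RLE scaling (adjusted p = 0.0461), with the literal reading of the study's filter (adjusted p = 0.0457) and in a fit of only the libraries compared (adjusted p = 0.00195).

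On day 2 the interaction passed for 2 of the 4 genes after 15 min, where 35.9% of all genes passed, and for 3 after 60 min, where 61.3% did. The HL response of Cre07.g320450 was larger with acetate by 2.55 ± 0.42 after 15 min and 6.33 ± 0.51 after 60 min (log2, adjusted p = 2.4e-05 and 3.43e-12). That of Cre09.g394325 was larger by 3.14 ± 0.45 and 3.64 ± 0.45 (adjusted p = 1.53e-06 and 2.65e-08). Without replicate 2 of HSM, LL, 1440 min, these values were 2.24 and 6.00 for Cre07.g320450 and 2.79 and 3.27 for Cre09.g394325, all past the threshold. Without replicate 3 of acetate, 60 min of HL, the 60 min value of Cre09.g394325 was 3.04. The HL levels of Cre09.g394325 on day 2 overlapped between media at both times. Its means differed in LL at 1440 min, at 32.8 CPM with acetate and 378 CPM in HSM. A larger HL response of this gene with acetate is thus not a higher level in HL.

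For Cre07.g320400 the day 2 differences were 2.89 ± 1.28 after 15 min (adjusted p = 0.152, against 0.0117 by DESeq2, 0.0448 in a fit of only the libraries compared and 0.227 without replicate 2 of HSM, LL, 1440 min) and 3.99 ± 1.38 after 60 min (adjusted p = 0.0427). The 60 min call was lost without replicate 1 of HSM, LL, 1440 min (2.71, adjusted p = 0.515), replicate 2 of that condition (adjusted p = 0.0818), replicate 2 of acetate, LL, 1440 min (adjusted p = 0.0564) or replicate 1 of HSM, 60 min of HL (adjusted p = 0.0667), with library size only (adjusted p = 0.0946) and in a fit of only the libraries compared (adjusted p = 0.0778). It was 3.23 without replicate 3 of acetate, 60 min of HL. For Cre09.g393173 the differences were −0.28 ± 0.19 and −0.35 ± 0.19 (adjusted p = 0.269 and 0.119), and −0.32 and −0.41 without replicate 2 of HSM, LL, 1440 min (adjusted p = 0.234 and 0.0862). Its 60 min value passed without replicate 1 of acetate, LL, 1440 min (adjusted p = 0.0405) or replicate 3 of acetate, 60 min of HL (adjusted p = 0.00749), with the literal filter (adjusted p = 0.0252) and with library size only (adjusted p = 7.64e-08).

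The HL response on day 2 was also set against that on day 1. With acetate the difference passed for 4 of the 4 genes after 15 min, where 36.4% of all genes passed, and for 3 after 60 min, where 63.3% did. After 15 min it was 4.92 ± 0.96 for Cre07.g320400 (adjusted p = 0.00135), 4.59 ± 0.35 for Cre07.g320450 (adjusted p = 1.7e-11) and 3.76 ± 0.45 for Cre09.g394325 (adjusted p = 9.14e-08). Of the 13886 genes tested, these stood at ranks 1, 2 and 3 by the size of the difference. Cre07.g320400 passed the filter through its HL libraries and had few counts in LL, so its rank is no separate support. Cre09.g393173 had a smaller rise on day 2 (−0.51 ± 0.19, adjusted p = 0.0363), a call lost without any 1 of 8 of the 12 libraries (adjusted p of 0.0596 to 0.109) and with RLE scaling (adjusted p = 0.0598). Those 8 were replicates 1 and 2 of LL, 240 min, replicates 2 and 3 of 15 min of HL on day 1, of LL, 1440 min and of 15 min of HL on day 2.

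After 60 min with acetate, the day 2 response exceeded that of day 1 by 5.96 ± 0.37 for Cre07.g320450 (adjusted p = 5.75e-15), 3.62 ± 0.45 for Cre09.g394325 (adjusted p = 2.55e-08) and 3.90 ± 1.02 for Cre07.g320400 (adjusted p = 0.00396). Both calls of Cre07.g320400 were lost without replicate 3 of acetate, LL, 240 min (3.22 after 15 min, adjusted p = 0.321; 2.205 after 60 min, adjusted p = 0.418). Leaving out replicate 3 of acetate, 60 min of HL on day 2, gave 60 min values of 3.14 for Cre07.g320400 and 3.02 for Cre09.g394325. Cre09.g393173 had −0.41 ± 0.19 after 60 min (adjusted p = 0.0635), and passed by DESeq2 (adjusted p = 0.0499) and limma-voom (adjusted p = 0.04). It also passed without replicate 3 of LL, 240 min (adjusted p = 0.0349), replicate 1 of LL, 1440 min (adjusted p = 0.0198) or replicate 3 of 60 min of HL on day 2 (adjusted p = 0.00307), with the literal filter (adjusted p = 0.00779) and with library size only (adjusted p = 4.71e-05).

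In HSM the days did not differ past the threshold for any of the 4 genes with edgeR, after 15 min (11.21% of all genes) or after 60 min (6.07% of all genes). DESeq2 and limma-voom called 0 of them at each time, and at an unadjusted p under 0.05 there was 1 at each, Cre09.g394325 (0.95 ± 0.45 and 1.07 ± 0.45, adjusted p = 0.167 and 0.154). Its 60 min value passed with library size only (1.51, adjusted p = 0.0297), and without replicate 2 of HSM, LL, 1440 min, the values were 1.27 and 1.40 (adjusted p = 0.0562 and 0.0522). Cre07.g320450 had 1.103 ± 0.56 after 15 min and −1.098 ± 0.71 after 60 min (adjusted p = 0.224 and 0.375), or 1.37 and −0.81 without that library (adjusted p = 0.128 and 0.562).

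**Figure D4:**
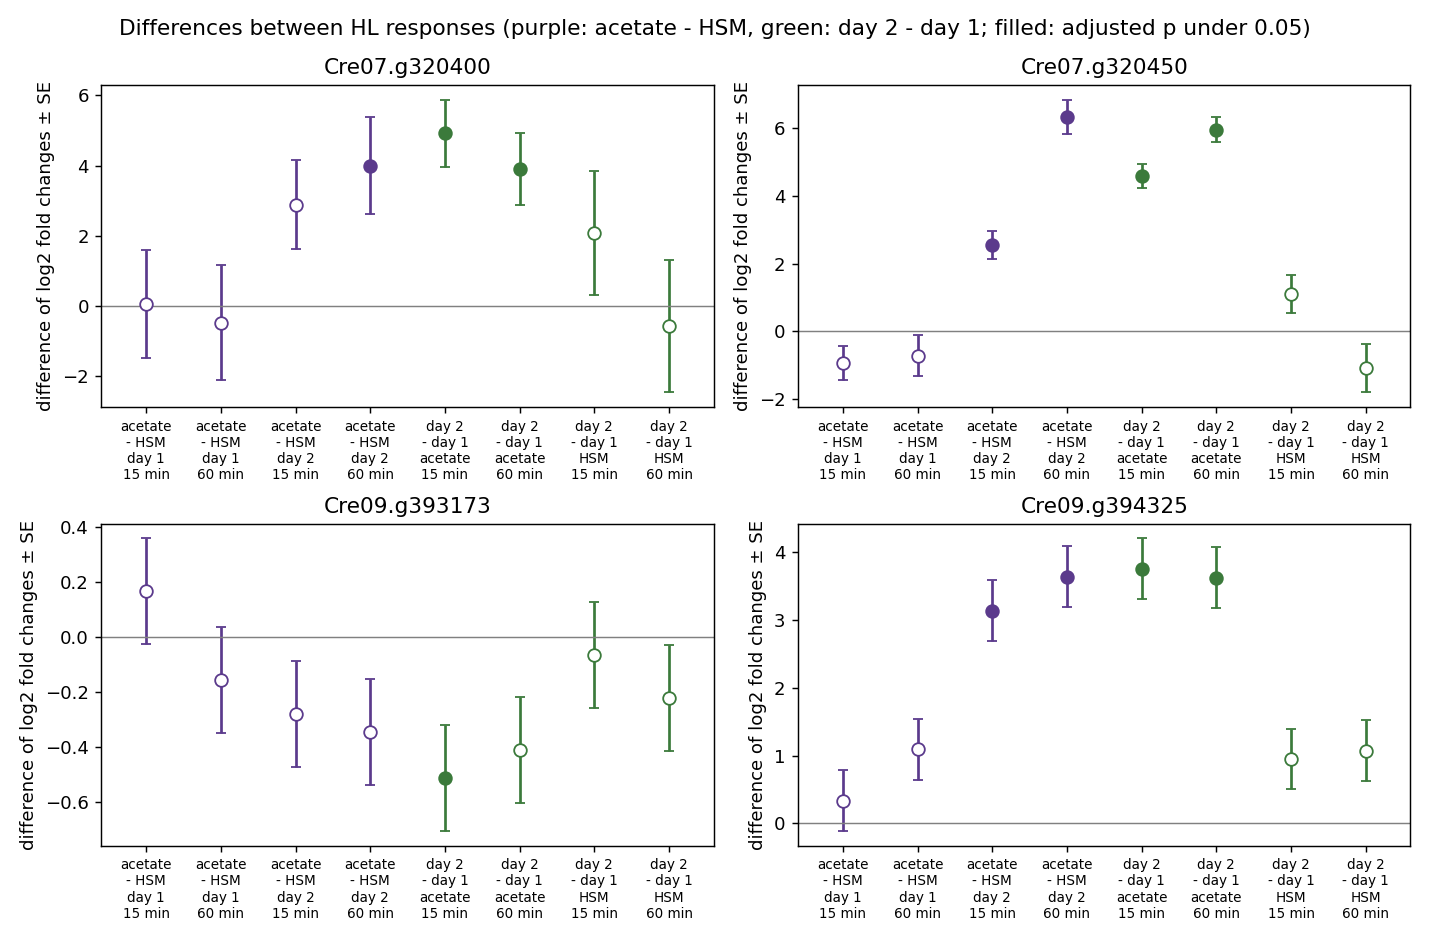
Differences between HL responses (log2, ± SE), as acetate minus HSM on each day and as day 2 minus day 1 in each medium, with filled points past the threshold. The acetate differences between days are 4.92, 4.59 and 3.76 after 15 min for Cre07.g320400, Cre07.g320450 and Cre09.g394325, and −0.51 for Cre09.g393173.

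Cre07.g320400 and Cre07.g320450 are immediate neighbours in the RefSeq annotation of assembly v5.5, used here for gene order. Whether reads from similar copies were shared between them is not given in the sources used here, so their separate values are uncertain to that extent. Over the 14 condition means, Pearson's r of their log2 CPM was 0.94 and Spearman's rho 0.79, a description over conditions that share the strain and the scaling. The next genes on each side did not follow them in the comparisons looked up, and were named after their values were seen. In HL with acetate after 15 min on day 2, Cre07.g320350 and Cre07.g320500 were lower than in LL, at log2 fold changes of −1.098 and −0.54 (adjusted p = 1.66e-07 and 0.0054). With acetate against HSM after 60 min on day 2 they were also lower, at −1.24 and −1.16 (adjusted p = 3.42e-09 and 3.11e-08).

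The 2 neighbours were not in a constant ratio. Of the reads counted for either of them, Cre07.g320400 took 23.5% with acetate after 15 min of HL on day 2 (21.0% to 25.2% over the 3 libraries) and 7.15% after 60 min (4.16% to 10.0%). In HSM the shares were 25% (23.0% to 26.7%) after 15 min and 35.1% (16.7% to 43.5%) after 60 min, the last from 57 reads. In LL at 1440 min the share was 6.65% with acetate (3.14% to 8.78% over the 3 libraries) and 8.62% in HSM (0% to 13.8%). Exact 95% intervals, for counting error of the pooled reads only, were 4.53% to 9.36% and 2.86% to 19.0%.

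Summed in each library and tested as 1 feature, an alternative chosen after the data were seen, the pair rose in HL after 15 min on day 2 by 6.54 ± 0.29 with acetate and 3.99 ± 0.32 in HSM (adjusted p = 2.94e-19 and 3.5e-13). The sum was higher with acetate by 4.73 after 15 min and 8.02 after 60 min of HL on day 2 (adjusted p = 1.62e-17 and 5.08e-21). The falls of Cre07.g320450 below LL after 60 min were lost in the sum, with −0.75 in HSM on day 2 (adjusted p = 0.11) and −0.63 with acetate on day 1 (adjusted p = 0.0596).

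**Figure D5:**
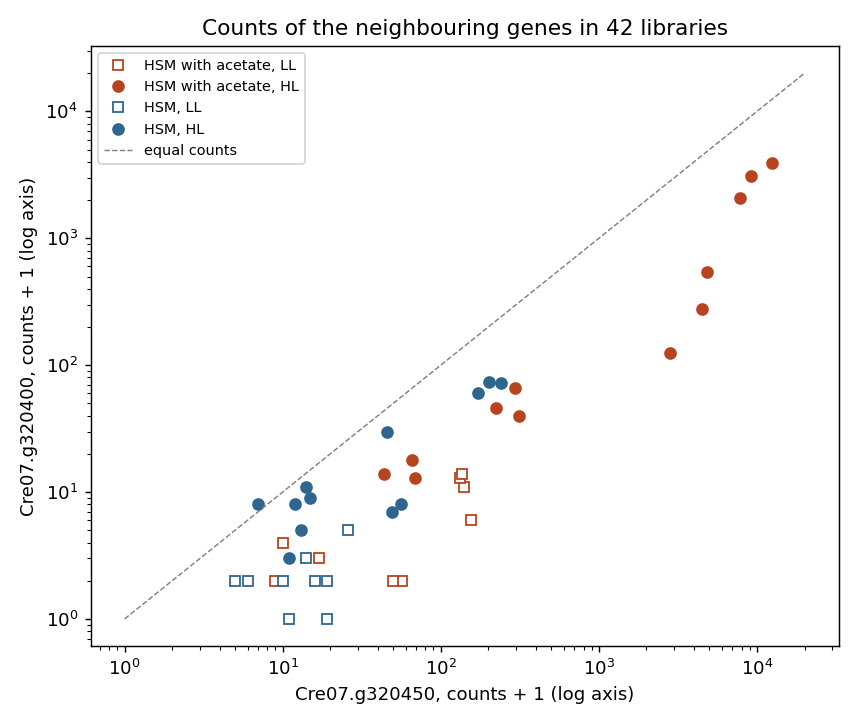
Counts plus 1 of Cre07.g320400 against Cre07.g320450 in the 42 libraries (log axes), with filled circles for HL, open squares for LL and a dashed line at equal counts. The 3 libraries with acetate after 15 min of HL on day 2 lie at 2068 to 3896 counts of Cre07.g320400, above the 123 to 539 counts after 60 min.

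The other pairs of ELIP genes were less alike, with r of 0.34 for Cre09.g393173 and Cre09.g394325, 0.25 for Cre07.g320400 and Cre09.g394325, 0.24 for Cre07.g320400 and Cre09.g393173, 0.22 for Cre07.g320450 and Cre09.g394325, and 0.01 for Cre07.g320450 and Cre09.g393173. Spearman's rho over the same means was 0.46, −0.02, 0.22, 0.11 and −0.10 for these pairs, taken in the same order. Of all genes tested, those most like Cre07.g320400 over the 14 means were Cre06.g273750, Cre02.g077976 and Cre11.g479650 (r of 0.96, 0.96 and 0.95). For Cre07.g320450 they were Cre16.g674065, Cre02.g077976 and Cre09.g388850 (0.96, 0.95 and 0.95), so that Cre02.g077976 stood near both neighbours. Those for Cre09.g393173 were Cre13.g566550, Cre07.g335400 and Cre08.g372000 (0.91 each), and those for Cre09.g394325 were Cre16.g689201, Cre01.g007774 and Cre01.g037250 (0.82, 0.82 and 0.78). Spearman's rho over the 42 libraries was lower than r for each of these genes. It ran from 0.55 (Cre01.g007774 with Cre09.g394325) to 0.90 (Cre09.g388850 with Cre07.g320450), with 0.73 for Cre06.g273750 and Cre07.g320400. None of these genes has a name in the sources used here.

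The study's list of photoprotection genes names 4 other ELI genes, which encode further ELIPs. In the average HL response ELI1 (Cre16.g679250; 2.06 ± 0.07), ELI5 (Cre04.g211850; 1.64 ± 0.14) and ELI4 (Cre05.g247400; 1.01 ± 0.10) rose, and ELI3 (Cre06.g278213; −0.79 ± 0.12) fell. Without the library that stands apart these values were 1.97, 1.48, 0.92 and −0.91. All 4 were higher with acetate on average, at 1.22 for ELI5, 1.19 for ELI4, 0.88 for ELI3 and 0.88 for ELI1, or 1.14, 1.16, 0.83 and 0.84 without that library. Their medians were 1.33 for HL and 1.04 for acetate, against −0.03 and −0.05 over all genes tested.

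Where the HL response of Cre07.g320450 was larger with acetate on day 2, that of ELI1 was smaller, by −1.55 after 15 min and −0.63 after 60 min (adjusted p = 2.34e-07 and 0.00934). ELI1 stood at 36.3, 35.2 and 35.7 CPM with acetate and 34.6, 32.6 and 33.6 CPM in HSM after 15 min of HL on day 2, 2 narrow ranges close to each other. In LL at 1440 min it had 6.06, 9.205 and 7.97 CPM with acetate and 2.68, 1.80 and 2.74 CPM in HSM. The response of ELI5 was likewise smaller with acetate (−1.86 and −1.74, adjusted p = 0.000758 and 0.000454). That of ELI3 had 0.10 after 15 min (adjusted p = 0.867) and was larger after 60 min (1.33, adjusted p = 0.00296). That of ELI4 had 0.50 after 15 min (adjusted p = 0.221) and was larger after 60 min (1.86, adjusted p = 4.3e-06), with 38.9, 31.6 and 45.0 CPM with acetate and 5.93, 6.89 and 3.92 CPM in HSM at 60 min. Leaving out replicate 2 of HSM, LL, 1440 min gave 15 and 60 min differences of −1.45 and −0.55 for ELI1, −1.496 and −1.4003 for ELI5, 0.28 and 1.49 for ELI3, and 0.54 and 1.88 for ELI4, with the same 6 past the threshold. Over the 14 means ELI4 had r of 0.94 with Cre07.g320450 and 0.90 with Cre07.g320400.

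Other photoprotection lists were counted for the same averages, beside the shares of all genes given above. Of 5 effectors of qE, the rapid dissipation of excess light as heat, 5 were higher in HL, led by LHCSR3.1 (6.92 ± 0.28). With acetate 1 was higher, LHCSR1 (0.91 ± 0.11), and 4 were lower, led by LHCSR3.1 (−5.02 ± 0.20). Their median was 6.63 for HL and −1.07 for acetate. Of 12 genes of the photosystem II antenna, 1 was higher in HL, LHCB7 (1.31 ± 0.06), and 10 were lower, led by the minor antenna gene LHCB5 (−1.13 ± 0.21), with a median of −0.72. With acetate 12 of 12 were higher, led by LHCBM8 (2.59 ± 0.15), with a median of 1.46.

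Of 12 genes of light and UV-B signalling, 9 were higher and 0 lower in HL by edgeR with TMM (1 lower with RLE scaling; median 0.34), led by DET1 (2.01 ± 0.11), and with acetate 3 were higher, led by UBC17 (1.28 ± 0.06), and 9 lower, led by DDB1 (−1.34 ± 0.08; median −0.35). Of 3 genes of singlet oxygen signalling, SAK1, which Chlamydomonas needs for acclimation to singlet oxygen, rose most in HL (0.97 ± 0.06) and with acetate (0.33 ± 0.05), and PSBP2 fell most in both (−1.64 ± 0.10 and −2.24 ± 0.09). There 2 were higher and 1 lower in HL (median 0.95), and 1 was higher and 2 lower with acetate (median −0.36). Of the 2 xanthophyll cycle genes, the zeaxanthin epoxidase ZEP1 rose in HL (0.99 ± 0.06) and VDR1 fell (−0.995 ± 0.07). Both were lower with acetate, led by ZEP1 (−0.95 ± 0.05), and the medians were −0.0024 for HL and −0.61 for acetate. With library size only, the lower genes with acetate numbered 4 of the 12 signalling genes, 1 of the 3 singlet oxygen genes and 1 of the 2 xanthophyll cycle genes, where VDR1 turned to 0.09 (adjusted p = 0.39).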

How the data were processed

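Reads were adapter-trimmed (BBduk) and mapped by the authors with STAR 2.5.3, a version from the submitters' processing notes, on the version 5 reference transcriptome of Phytozome. HTSeq-count (stranded=reverse) then gave the raw counts that the authors deposited. How reads of similar copies were treated is not given in the sources used here. The table held 0 columns of no sample. A gene was kept when 9 or more of the 42 libraries held 1 CPM or more (13886 genes; 17305 had any count). Counts were scaled by TMM and fitted with edgeR 4.0.16 (glmQLFit, glmQLFTest) in R 4.3.3, with 1 coefficient per condition. P-values were Benjamini-Hochberg adjusted over all genes tested, with a threshold of 0.05. SE values are those of the fitted log2 fold changes, from the model's covariance and quasi-likelihood dispersion. The study's methods call the 3 libraries of a condition biological replicates. The labels give replicate numbers and do not say which libraries share a culture, so p-values measure the spread between libraries. Each gene's spread was estimated jointly over all 42 libraries. SE and p-values therefore do not measure the spread of only the libraries compared. Correlations used log2 CPM with a prior count of 2. Tests were checked on simulated counts before use. The simulation changed a small set of genes in 1 condition and gave all genes the same dispersion. It cannot judge the scaling where most genes change, or a gene with few counts in LL only.

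The 4 members and all gene lists were chosen with earlier results of these data known. The text names the 4 ELIP genes, the other ELI genes, of each further list the gene that rose most and the gene that fell most in each average response, and the 3 genes most like each ELIP gene. The lists come from the study's tables. Of the identifiers, 17738 matched RefSeq assembly v5.5, used for gene order only. That table holds no product names, so a planned list by product was not made and the ELIP label was not checked by annotation. Sequences were not used here. Alternatives were RLE scaling, library size only, no filter, a literal reading of the study's filter (genes under 1 CPM in 9 or more libraries discarded, which leaves 11037), DESeq2 1.42.0, limma-voom (limma 3.58.1), fits of only the libraries compared, the replicate number or the second bracketed number of the sample titles as a block, leaving out each library, and, added after the data were seen, the summed counts of the 2 neighbouring genes. Tables and figures were made with Python 3.11.15, NumPy 2.4.6, SciPy 1.17.1, pandas 2.3.3 and matplotlib 3.10.9.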

Additional observations from a re-analysis of the deposited data

Results flagged for a closer look

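Of 32 tests of a difference between HL responses in the ELIP genes, 12 passed the threshold. In the same comparisons 6.07% to 63.3% of all genes passed, so the count alone does not set the ELIP genes apart. No explanation was tested for any of the 12. Between media on day 2, the response with acetate minus that in HSM was 2.55 for Cre07.g320450 and 3.14 for Cre09.g394325 after 15 min of HL, and 3.99 for Cre07.g320400, 6.33 for Cre07.g320450 and 3.64 for Cre09.g394325 after 60 min (log2). Between days with acetate, day 2 minus day 1 was 4.92 for Cre07.g320400, 4.59 for Cre07.g320450, −0.51 for Cre09.g393173 and 3.76 for Cre09.g394325 after 15 min. After 60 min it was 3.90 for Cre07.g320400, 5.96 for Cre07.g320450 and 3.62 for Cre09.g394325. The calls of Cre07.g320400 and Cre09.g393173 among these were lost on leaving out single libraries, as given above. The LL libraries of each day and medium enter both exposure times, so these differences are not independent. The level of Cre09.g394325 in LL with acetate at 1440 min (18.0, 35.6 and 44.8 CPM) enters each of its 4 differences, and its levels after 15 min of HL on day 2 overlapped between media (201 to 284 CPM with acetate and 278 to 347 CPM in HSM).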

How the results depend on the processing

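Of 132 tests of single ELIP genes, 88 passed the threshold. In the same comparisons 4.198% to 85.0% of all genes passed. The tests share libraries and the averages repeat the single comparisons, so the tests are not independent. Scaling by library size alone turned the sign of 5 values past the threshold in at least one of the scalings, each of Cre09.g393173: HL against LL after 60 min with acetate on day 2 (−0.46, against 0.12), acetate against HSM in LL at 1440 min (0.52, against −0.46), 60 against 15 min of HL in HSM on day 1 (0.45, against −0.20) and day 2 (0.69, against −0.36), and LL with acetate at 240 against 15 min (0.17, against −0.77). Values past the threshold in neither scaling also turned, 2 of Cre09.g393173, 4 of Cre09.g394325 and 1 of Cre07.g320450. That scaling shifted the median of all genes by −1.40 to 1.04.

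The literal filter drops Cre07.g320400 and Cre07.g320450, so fewer ELIP genes were tested. Calls then numbered 14 for HL against LL (26 in the main fit), 11 for acetate (main fit 20) and 7 for 60 against 15 min (main fit 14). They numbered 5 for LL over time (main fit 8) and 4 for day 2 minus day 1 (main fit 7). Over libraries left out in turn, the counts of the main fit ranged over 25 to 27, 18 to 20, 13 to 16, 7 to 9 and 6 to 8. That of the acetate interaction ranged over 4 to 7 (main fit 5). The average HL responses ranged over 3.60 to 4.22, 2.00 to 2.23, 0.57 to 0.66 and −0.59 to −0.40 for Cre07.g320400, Cre07.g320450, Cre09.g393173 and Cre09.g394325. The average acetate responses ranged over 2.13 to 2.56, 3.08 to 3.19, −0.93 to −0.87 and −1.06 to −0.92 in the same order. An average acetate response with only the libraries compared is the full fit and gave no separate value.

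Replicate numbers gave no steady sign of pairing (1 of 15 comparisons had each correlation of deviations over 0.1). Single correlations ran from −0.17 to 0.39, and this check cannot exclude shared cultures. With the replicate block the counts were 26, 20, 15, 8, 7 and, for the acetate interaction, 5, and the averages of Cre07.g320400 were 3.81 for HL and 2.35 for acetate. The block added the call of Cre07.g320400 for 60 against 15 min in HSM on day 1 (−1.55, adjusted p = 0.0193). With the second bracketed number of the sample titles, whose meaning the labels do not give, as the block the counts were 26, 19, 15, 8, 6 and 5. That block added the same call (−1.95, adjusted p = 0.00845) and lost those of Cre07.g320400 for acetate after 15 min of HL on day 1 (0.88, adjusted p = 0.0915) and of Cre09.g393173 for day 2 minus day 1 with acetate after 15 min (−0.49, adjusted p = 0.0592).

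Over all genes, those past the threshold for LL in HSM at 240 against 15 min numbered 583, against 2448 by library size and 239, 198, 330 and 165 without replicate 2 or 3 of LL, 15 min, or replicate 2 or 3 of LL, 240 min. LL in HSM at 1440 against 240 min gave 2845, or 1019 with only the libraries compared. The acetate interaction after 15 min gave 4031 on day 1 and 4989 on day 2, or 2421 and 3217 by library size. Day 2 minus day 1 in HSM gave 1556 after 15 min, or 328 by library size, 231 with only the libraries compared and 951 without replicate 3 of LL, 1440 min. After 60 min it gave 843, or 272 with only the libraries compared, and 458 to 559 without replicate 2 of LL, 240 min, replicate 3 of LL, 1440 min, or replicate 1 of 60 min of HL on either day. Depth limits Cre07.g320400 in LL, where single reads set its level.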
